A study of Mus musculus with 12 samples.

Results

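The genes described are the aryl hydrocarbon receptor Ahr, its dimer partners Arnt and Arnt2, its repressor Ahrr, and the target genes Cyp1a1, Cyp1b1, Tiparp and Nqo1, followed through control and JMJD3 knockdown mouse neural stem cells with and without TGFb. Members were found as gene probes whose name in the scanner files is 1 of these 8 symbols, out of 31829 gene names on the array. They have 12 probes, of which 10 passed a detection filter (well above background throughout at least 1 group), and 7 of the 8 genes could be tested. The members were chosen by name with measured changes of these arrays in view, the fall of Ahr with TGFb among them. All values of the members are therefore given as a description, without p-values.

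Neural stem cells had been dissected from the cerebral cortex of mouse embryos at E12.5 and stably transfected with a random shRNA (control) or with an shRNA against JMJD3, which the labels call sh2 JMJD3. Each line received either vehicle (labelled as no treatment) or TGFb at 5 ng/ml for 2.5 h, and each of the 4 groups holds 3 samples, so that 12 samples were measured on 1-colour Agilent arrays. JMJD3, gene Kdm6b, is a demethylase that removes the repressive H3K27 methyl mark, and TGFb is a cytokine that signals through Smad transcription factors. The series asks whether JMJD3 is needed for the regulation of TGFb-responsive genes. The labels name 1 shRNA against JMJD3 and do not say whether a line is a clone or a pool. They also do not say that replicates were separate cultures, and the p-values therefore reflect the spread among these samples alone, which may be technical. With 1 shRNA against JMJD3, the knockdown cannot be told apart from other differences between the lines. Rises and falls with the knockdown therefore describe knockdown cells beside control cells.

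The receptor is a ligand-activated transcription factor of the bHLH-PAS family. Without ligand it is held in the cytosol by a chaperone complex, and with ligand (dioxin-like pollutants, tryptophan metabolites) it enters the nucleus, pairs with ARNT and binds short elements with the core GCGTG. Its classical targets include cytochrome P450 enzymes that oxidise such ligands, and it is restrained by products of its own targets, since AHRR competes for ARNT and TIPARP is an ADP-ribosyltransferase that limits receptor activity. In the developing nervous system the receptor is known for effects on progenitor growth and on the response to pollutants, and ARNT2 is the partner form typical of neural tissue.

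The sequences below are the promoters of the repressor and of both targets that were above background and hold the core, since these genes moved with TGFb or with the knockdown. RefSeq windows of 300 bases, from 250 before to 50 after the gene start (GRCm38.p6), were found for 7 of the 8 members, for all but Ahr. Each is printed 5′ to 3′ along the gene, with the core GCGTG, or CACGC where it lies on the other strand, in capitals. The windows are chr13:74292282-74292581 on the minus strand for Ahrr, chr17:79715012-79715311 on the minus strand for Cyp1b1, and chr3:65528197-65528496 on the plus strand for Tiparp.
Ahrr: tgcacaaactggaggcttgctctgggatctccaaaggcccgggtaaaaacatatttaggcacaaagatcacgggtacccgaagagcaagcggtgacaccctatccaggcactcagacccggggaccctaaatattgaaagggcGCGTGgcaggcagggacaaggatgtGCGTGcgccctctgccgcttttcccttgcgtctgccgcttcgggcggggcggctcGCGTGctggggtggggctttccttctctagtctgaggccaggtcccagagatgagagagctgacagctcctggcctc
Cyp1b1: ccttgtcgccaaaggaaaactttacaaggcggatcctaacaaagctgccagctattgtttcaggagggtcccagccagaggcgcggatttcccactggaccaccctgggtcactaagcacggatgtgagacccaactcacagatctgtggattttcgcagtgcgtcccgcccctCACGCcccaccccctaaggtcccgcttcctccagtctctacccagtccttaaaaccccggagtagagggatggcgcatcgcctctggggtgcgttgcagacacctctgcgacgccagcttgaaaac
Tiparp: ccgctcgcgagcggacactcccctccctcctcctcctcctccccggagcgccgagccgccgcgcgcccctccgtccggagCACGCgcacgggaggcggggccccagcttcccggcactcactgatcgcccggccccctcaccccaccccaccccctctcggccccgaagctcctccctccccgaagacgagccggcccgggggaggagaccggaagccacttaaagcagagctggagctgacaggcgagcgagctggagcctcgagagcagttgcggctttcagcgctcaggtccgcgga

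The Ahrr window holds the core 3 times, starting 107, 82 and 27 bases before the gene start. Cyp1b1 holds it once, 76 bases before the start, and Tiparp once, 170 bases before it. In all, 5 of the 7 windows held the core (these, Arnt and Cyp1a1), beside 32.4% of all 32851 promoter windows of the same length, searched on both strands. The longer element TNGCGTG, which contains the core, was found in 1 of 7 windows, that of Ahrr, and in 5.07% of all. The Smad element CAGACA was found in 3 of 7 (Arnt, Cyp1a1 and Cyp1b1) and in 21% of all, and the Smad palindrome GTCTAGAC in 0 of 7 and in 0.213% of all. The core is also part of elements read by the hypoxia-inducible factors, so a match describes letters in a window and not a bound site.

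Signals are given as log2 of the background-corrected intensity relative to the 75th percentile of the same array, so 0 is that percentile and 1 unit is a doubling. The percentile lay between 2928 and 4124 intensity units, between 70.3% and 78.4% of gene probes were well above background on each array, and replicates correlated at 0.994 to 0.998. A gene was called changed where its adjusted p was under 0.05 with limma and Benjamini-Hochberg adjustment over all 24149 genes tested. Kdm6b, the targeted gene, lay at -0.72, -0.61 and -0.62 in vehicle control cells and at -1.83, -1.78 and -1.84 in vehicle knockdown cells. With TGFb it lay at -0.55, -0.56 and -0.47 in control cells and at -1.89, -2.00 and -1.90 in knockdown cells. The knockdown arrays were thus lower than all control arrays, by 1.17 ± 0.05 (SE) on the log2 scale with vehicle and by 1.40 ± 0.05 with TGFb. The TGFb target gene Smad7, an inhibitor of the pathway, rose with TGFb by 2.83 ± 0.18 in control cells and by 3.31 ± 0.18 in knockdown cells.

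All 8 neural stem cell markers examined (Nes, Sox2, Pax6, Vim, Fabp7, Slc1a3, Msi1 and Prom1) were well above background on all 12 arrays. So were 3 of the 5 microglial and 4 of the 5 endothelial markers examined. The microglial marker Aif1 and the endothelial marker Cdh5 failed that detection flag on all 12 arrays. With TGFb, 1 of 4 tested microglial markers rose (Tmem119, by 1.60 in control and 1.82 in knockdown cells), as did 1 of 3 fibroblast markers (Col1a1, by 1.11 and 1.27) and 1 of 4 astrocyte markers (Gfap, by 0.93 and 0.45). The median changes of these lists were 0.23 and 0.45 for microglia, 0.10 and -0.17 for fibroblasts and 0.21 and 0.11 for astrocytes. Sox2, a stem cell marker, fell by 0.15 and 0.33. The summed linear signal of the 5 microglial markers was 0.237 to 0.291 times the 75th percentile in vehicle control and 0.252 to 0.347 in TGFb control cells, and 0.278 to 0.360 and 0.344 to 0.482 in the knockdown groups. For the 5 fibroblast markers it was 0.0578 to 0.0711 and 0.0769 to 0.1003 in control cells, and 0.0562 to 0.0756 and 0.0699 to 0.0881 in knockdown cells.

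With the knockdown, 5 of the 8 neural stem cell markers were called under vehicle (3 higher, 2 lower) and 3 under TGFb (2 higher, 1 lower). Of all genes, 28.1% and 29.3% were called in these comparisons. Sox2 (0.73 and 0.55) and Slc1a3 (0.67 and 0.71) were among the higher markers, and the lower ones are not named here. The median changes of the stem cell list were 0.09 and 0.11. Of the 5 neuronal markers 2 and 3 were called, with Dcx higher (1.12 and 0.90) and Rbfox3 lower (-1.28 and -1.29). Gfap of astrocytes (0.97 and 0.49) and P2ry12 of microglia (1.04 and 0.97) were higher, and Col1a1 of fibroblasts was lower (-0.49 and -0.33). In each of these lists 1 gene was called per treatment, of 4 astrocyte, 4 microglial and 3 fibroblast markers tested. The list medians were 0.02 and -0.02 for astrocytes, 0.22 and 0.41 for microglia and -0.11 and -0.31 for fibroblasts. The summed signal of the oligodendrocyte markers was 0.327 to 0.428 in vehicle control and 0.434 to 0.539 in vehicle knockdown cells, which do not overlap, and 0.338 to 0.439 and 0.422 to 0.511 with TGFb, which do. The part of the markers of this and the preceding paragraph in the changes described below was not tested. In bulk samples, fewer cells of a type and less RNA per cell cannot be told apart.

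Ahr, the receptor, was much lower after 2.5 h of TGFb in both lines. Its probe at chr12:36182724-36182783 (mm9, minus strand) read -1.48, -1.17 and -1.22 in vehicle control cells and -3.08, -3.02 and -2.93 with TGFb. In knockdown cells it read -1.04, -0.89 and -0.96 with vehicle and -3.17, -3.24 and -3.19 with TGFb. The highest array with TGFb was thus below the lowest array with vehicle by more than the whole spread of either group. Ahr fell by 1.72 ± 0.08 (SE, 3 against 3 arrays) on the log2 scale in control cells, or 3.29-fold, and fell by 2.24 ± 0.08 in knockdown cells, or 4.71-fold. Among the 24149 genes this was the fall of rank 25 in control cells and of rank 4 in knockdown cells. The file ties the probe to a RefSeq transcript, and whether it lies in a UTR was not determined here. A second Ahr probe, at chr12:36188523-36188582, was not well above background on any of the 12 arrays.

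**Figure D1:**
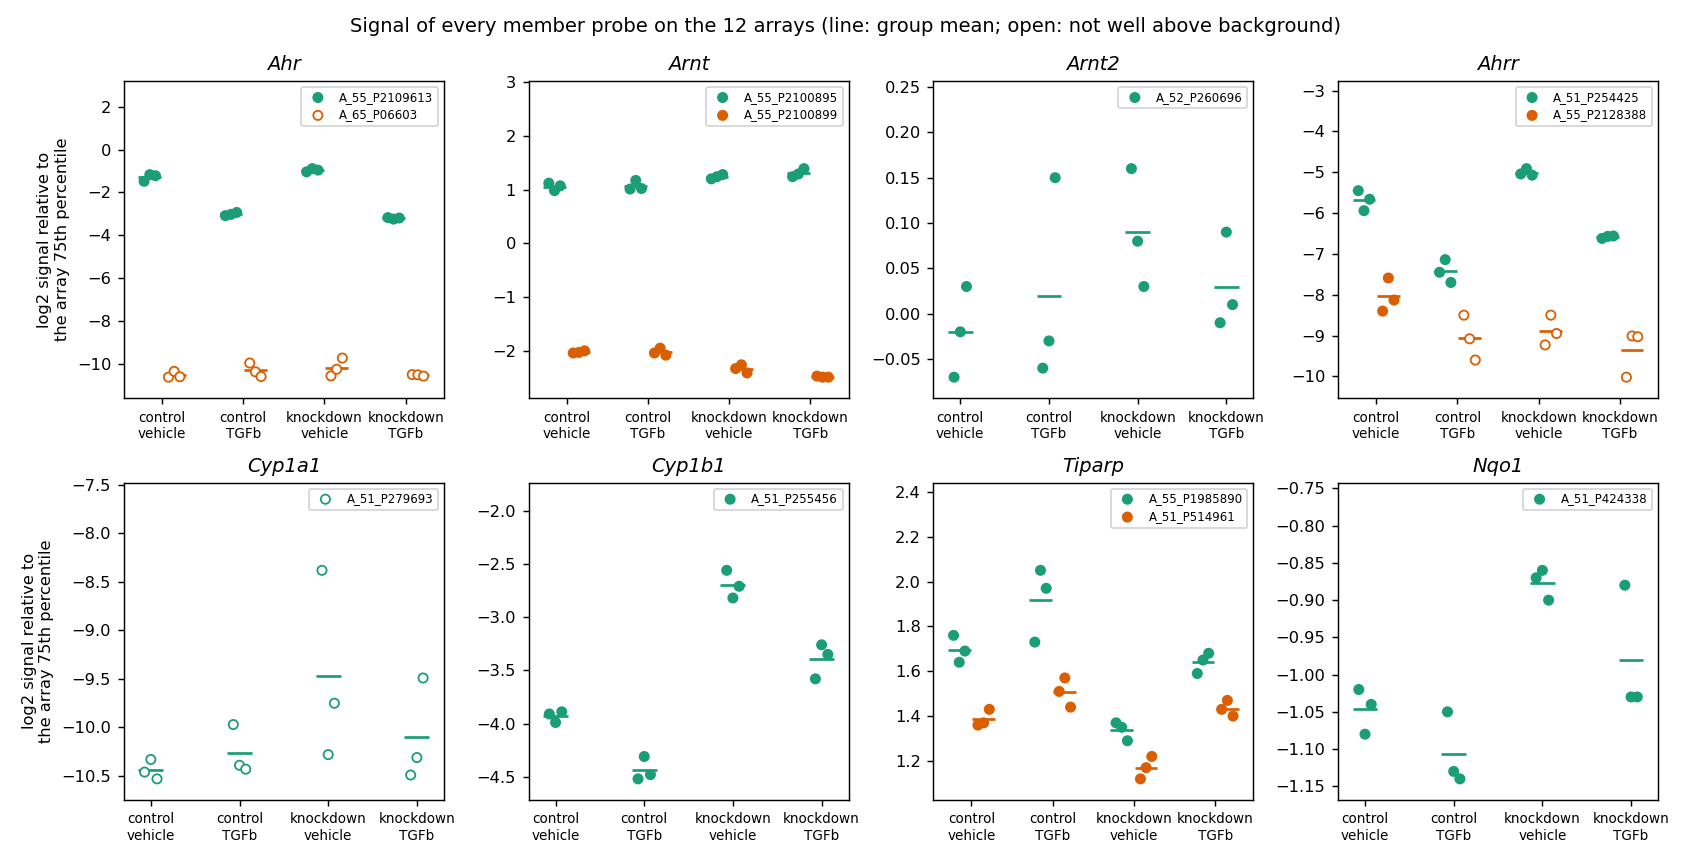
Each panel plots 1 member, with 1 point per array and probe in the 4 groups, log2 signal above or below the 75th percentile of that array on the vertical axis, short lines for group means and open points where the probe was not well above background. The Ahr and Ahrr probes that were measured everywhere sit lower in both TGFb groups, Cyp1b1 sits higher in both knockdown groups, and the 2 Arnt probes part in opposite directions with the knockdown.

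The order of the Ahr group means was vehicle knockdown (-0.97 ± 0.07, SD, n = 3), vehicle control (-1.29 ± 0.16), TGFb control (-3.01 ± 0.08) and TGFb knockdown (-3.20 ± 0.04). No pair of neighbouring groups in this order overlapped. Ahr was higher in knockdown than in control cells by 0.32 ± 0.08 with vehicle, a change that passed the threshold. It was lower in knockdown cells by 0.19 ± 0.08 with TGFb, which did not pass, although it did with the slide as a fixed block (-0.21) or a random block (-0.19) and without vehicle control replicate 1. The TGFb response of the knockdown line exceeded that of the control line by 0.52 ± 0.12 on the log2 scale, and this difference of responses did not pass the threshold over all genes. The vehicle difference also lost its call with normexp background correction, with scaling to the array median, with the authors' values and without vehicle knockdown replicate 2 (0.29 in the last). The fall with TGFb passed in both lines under all 26 alternative fits, with changes from -1.91 to -1.57 in control cells and from -2.33 to -2.06 in knockdown cells, values within a slide included.

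Ahrr, the repressor that competes with the receptor for ARNT, was lower with TGFb, and its brighter probe was higher with the knockdown. That probe, at chr13:74348566-74348612 (mm9, minus strand), read -5.45, -5.94 and -5.66 in vehicle control cells and -7.45, -7.14 and -7.70 with TGFb. In knockdown cells it read -5.04, -4.91 and -5.07 with vehicle and -6.62, -6.57 and -6.56 with TGFb. All 4 groups were apart, with the highest signal in vehicle knockdown cells and the lowest in TGFb control cells. With TGFb it fell by 1.75 ± 0.17 in control cells and by 1.57 ± 0.17 in knockdown cells. Among all falls of the main fit these had ranks 22 and 14. Ranks were not taken with normexp correction or the authors' values, where the falls were smaller. The probe was higher in knockdown than in control cells by 0.68 ± 0.17 with vehicle and by 0.85 ± 0.17 with TGFb.

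The Ahrr transcript was dim, and its sizes depended on the background correction. The processed signal ran from 18.4 to 128 intensity units over the 12 arrays, all of them well above background. With normexp correction the changes with TGFb were -0.57 and -0.72, and with the authors' values -0.64 and -0.81, all of which passed. The rise with the knockdown was 0.32 and 0.37 under vehicle in those fits, which still passed, and 0.16 and 0.20 under TGFb, which did not. The second Ahrr probe, at chr13:74350685-74350744, was well above background on the 3 vehicle control arrays (-8.40, -7.59 and -8.13) and on 0 arrays of the other groups. Dim arrays were next set to no less than the lowest signal above background on the array, with the spread among arrays left out. The group mean of this second probe was then 1.18-fold lower with TGFb in control cells. It was 1.10-fold lower in vehicle knockdown than in vehicle control cells. Tested probe by probe, its measured changes of -1.02 ± 0.40 and -0.85 ± 0.40 did not pass, and the second has the opposite sign to that of the first probe. When the kept probes of a gene were averaged, the Ahrr change with the knockdown was -0.09 under vehicle and 0.28 under TGFb, and both calls were lost.

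Arnt, the dimer partner, did not pass the threshold with TGFb in either line. The probe at chr3:95301081-95301140 (mm9, plus strand), which represented the gene, read 1.12, 0.98 and 1.07 in vehicle control cells and 1.01, 1.17 and 1.02 with TGFb. In knockdown cells it read 1.20, 1.24 and 1.28 with vehicle and 1.24, 1.29 and 1.39 with TGFb. Groups that differ in TGFb overlapped, and knockdown arrays lay above control arrays at each treatment. The changes with TGFb were 0.01 ± 0.06 and 0.07 ± 0.06. In knockdown cells the probe was higher than in control cells by 0.18 ± 0.06 with vehicle and by 0.24 ± 0.06 with TGFb.

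The second Arnt probe, at chr3:95299434-95299493, gave the opposite sign for the knockdown. It read -2.04, -2.03 and -2.00 in vehicle control cells and -2.33, -2.26 and -2.41 in vehicle knockdown cells, and -2.04, -1.95 and -2.08 against -2.47, -2.49 and -2.49 with TGFb. These groups do not overlap either. Tested probe by probe, it fell with the knockdown by 0.31 ± 0.06 with vehicle and by 0.46 ± 0.06 with TGFb. The 2 probes are tied to the same gene name, and a direction for the Arnt transcript as a whole is therefore not given. The vehicle call of the first probe was also lost in 11 of 26 alternative fits, among them the replicate block (0.18 ± 0.06) and each fit without vehicle control replicate 2 or 3 or without vehicle knockdown replicate 1, 2 or 3.

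Arnt2, the partner form typical of neural tissue, was called in 0 of the 5 comparisons. Its probe at chr7:91395682-91395741 (mm9, minus strand) read -0.07, -0.02 and 0.03 in vehicle control cells, -0.06, -0.03 and 0.15 with TGFb, 0.16, 0.08 and 0.03 in vehicle knockdown cells and -0.01, 0.09 and 0.01 in knockdown cells with TGFb. All 4 groups overlapped. The 4 changes with TGFb or the knockdown lay between -0.06 ± 0.06 (TGFb in knockdown cells) and 0.11 ± 0.06 (knockdown with vehicle), and the difference of the TGFb responses was -0.10 ± 0.09.

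Cyp1b1, a cytochrome P450 that oxidises polycyclic hydrocarbons and steroids, had the largest change with the knockdown among the 7 tested members. Its probe at chr17:80106547-80106606 (mm9, minus strand) read -3.91, -3.99 and -3.89 in vehicle control cells and -2.56, -2.82 and -2.71 in vehicle knockdown cells. With TGFb it read -4.52, -4.31 and -4.48 in control cells and -3.58, -3.26 and -3.35 in knockdown cells. Every knockdown array was above every control array, whatever the treatment, and every TGFb array was below the vehicle arrays of its own line. Cyp1b1 was higher in knockdown than in control cells by 1.24 ± 0.10 with vehicle, or 2.36-fold, and by 1.04 ± 0.10 with TGFb, or 2.05-fold. TGFb lowered it by 0.50 ± 0.10 in control cells and by 0.70 ± 0.10 in knockdown cells. These 4 changes passed in all 26 alternative fits, with the knockdown changes between 0.72 and 1.35 when values within a slide are counted too.

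Cyp1a1, the P450 that is the standard readout of receptor activation, was below the range of measurement. Its probe at chr9:57551535-57551594 (mm9, plus strand) was well above background on 0 of the 12 arrays, and no fold change is given for it. Group means lay between -10.44 ± 0.10 (SD, n = 3) in vehicle control cells and -9.47 ± 0.98 in vehicle knockdown cells.

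Tiparp, the ADP-ribosyltransferase that limits receptor activity, moved against Ahr in both comparisons in which the 2 genes passed. Its probe at chr3:65357710-65357769 (mm9, plus strand) read 1.76, 1.64 and 1.69 in vehicle control cells and 1.73, 2.05 and 1.97 with TGFb. In knockdown cells it read 1.37, 1.35 and 1.29 with vehicle and 1.59, 1.65 and 1.68 with TGFb. The control groups overlapped in 1 array, while both knockdown groups were apart. TGFb raised it by 0.30 ± 0.07 in knockdown cells, and the change of 0.22 ± 0.07 in control cells did not pass. The latter did pass in 4 of 26 alternative fits (mean of the kept probes, array weights, slide as a random block, and without TGFb control replicate 1), and within a slide it was 0.09 or 0.36. Tiparp was lower in knockdown than in control cells by 0.36 ± 0.07 with vehicle and by 0.28 ± 0.07 with TGFb.

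The second Tiparp probe, at chr3:65358749-65358808, gave the same signs. It read 1.36, 1.37 and 1.43 in vehicle control cells and 1.51, 1.57 and 1.44 with TGFb, against 1.12, 1.17 and 1.22 and then 1.43, 1.47 and 1.40 in knockdown cells. Tested probe by probe, it rose with TGFb in knockdown cells by 0.26 ± 0.05 and fell with the knockdown under vehicle by 0.22 ± 0.05, and its difference of -0.07 ± 0.05 under TGFb did not pass. For the first probe, the TGFb call in knockdown cells was lost in 6 of 26 alternative fits (array median scaling, slide as a fixed block, and without vehicle knockdown replicate 2 or 3 or TGFb knockdown replicate 2 or 3), at values from 0.24 to 0.33 over all fits. The knockdown call under TGFb was lost in 3 (array median scaling, only the groups compared, and without TGFb control replicate 2), and it was -0.17 with the mean of the kept probes.

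Nqo1, a quinone reductase induced through both the receptor and NRF2, changed little. Its probe at chr8:109912440-109912499 (mm9, minus strand) read -1.02, -1.08 and -1.04 in vehicle control cells, -1.05, -1.13 and -1.14 with TGFb, -0.87, -0.86 and -0.90 in vehicle knockdown cells and -0.88, -1.03 and -1.03 in knockdown cells with TGFb. The control and knockdown groups did not overlap under either treatment, while vehicle and TGFb groups overlapped in both lines. Nqo1 was higher in knockdown cells by 0.17 ± 0.05 with vehicle, and its change of 0.13 ± 0.05 with TGFb did not pass. The latter did pass with the slide as a fixed block (0.16) or a random block (0.15), and was 0.08 without TGFb knockdown replicate 1. The changes with TGFb were -0.06 ± 0.05 and -0.10 ± 0.05, neither past the threshold. The vehicle call was lost in 10 of 26 alternative fits, among them those without any 1 of the 6 vehicle arrays.

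**Figure D2:**
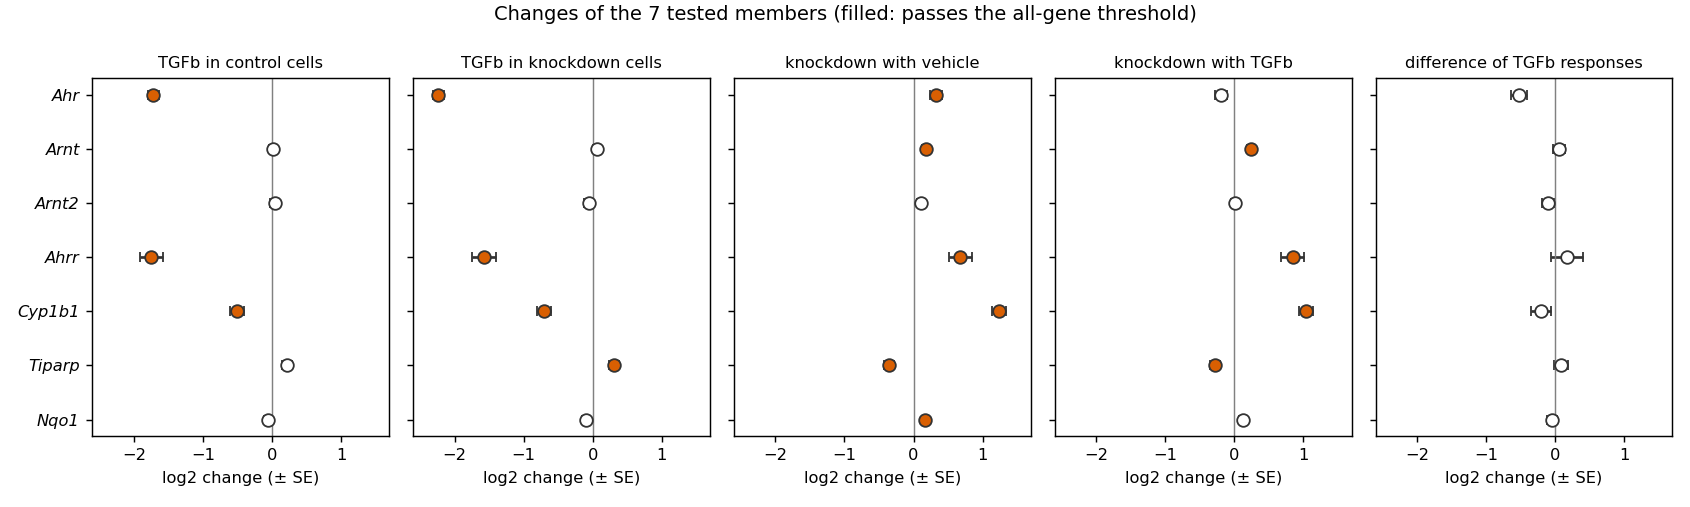
Log2 change with its standard error (horizontal axis) for the 7 tested members in the 5 comparisons, filled where it passed the all-gene threshold. Ahr, Ahrr and Cyp1b1 lie left of 0 for TGFb in both lines, Cyp1b1 reaches 1.24 for the knockdown, and no member passes for the difference of the responses.

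Counted together, 3 of the 7 tested members were called with TGFb in control cells (0 higher, 3 lower), where 10.2% of all genes were called, 5.45% higher and 4.73% lower. In knockdown cells 4 were called with TGFb (1 higher, 3 lower), beside 9.52% of all genes, 4.75% higher and 4.78% lower. Under vehicle 6 were called with the knockdown (5 higher, 1 lower), beside 28.1% of all genes, 12.2% higher and 15.9% lower. Under TGFb 4 were called with the knockdown (3 higher, 1 lower), beside 29.3%, 11.7% higher and 17.6% lower. For the difference of the TGFb responses 0 members were called with limma, beside 0.0952% of all genes, which is 23 genes, and 1 member had an unadjusted p under 0.05. Because the set was chosen with these results known, nothing is read from these counts. The median change of the 7 members was -0.06 and -0.10 with TGFb and 0.18 and 0.13 with the knockdown, beside medians between -0.02 and -0.01 over all genes. The comparisons share samples, since each group enters 2 of the changes with TGFb or the knockdown and also the difference of the responses.

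**Figure D3:**
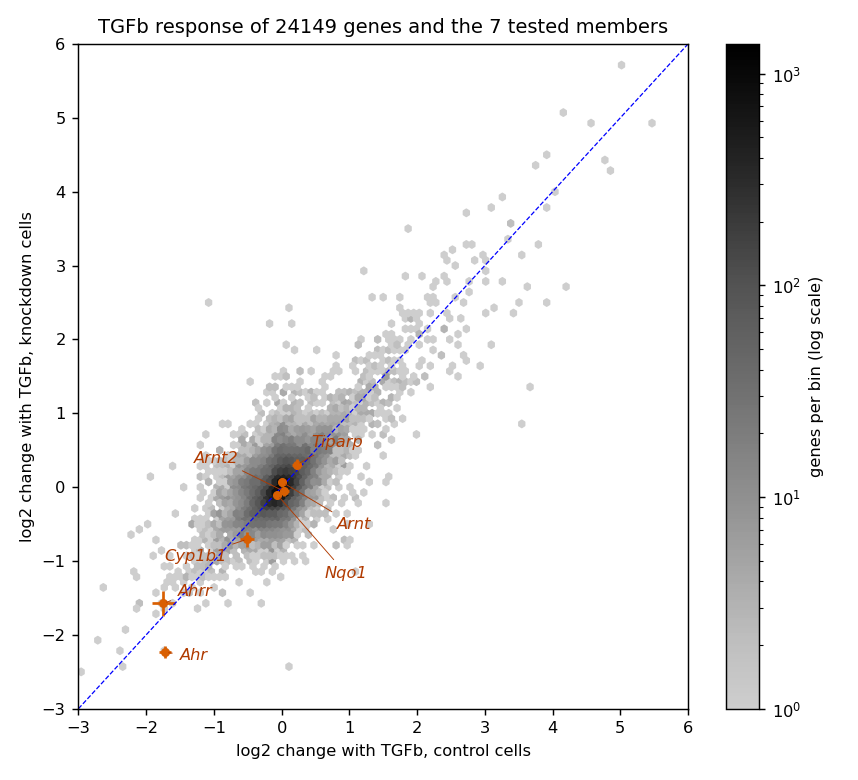
Log2 change with TGFb in control cells (horizontal axis) and in knockdown cells (vertical axis) for all 24149 genes, shaded by genes per bin on a log scale, with the 7 tested members as points with standard errors and the line of equal response dashed. Ahr (-1.72, -2.24) and Ahrr (-1.75, -1.57) lie at the lower edge of the cloud, Cyp1b1 (-0.50, -0.70) below its centre, and the other 4 members near 0. The dim Ahrr probe changed less with normexp correction (-0.57, -0.72), which is not drawn.

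The other genes of the pathway were taken from 6 lists with 54 genes, of which 44 were measured well enough to be tested. With TGFb 8 of the 44 were called in control cells (5 higher, 3 lower) and 12 in knockdown cells (6 higher, 6 lower). With the knockdown 20 were called under vehicle (11 higher, 9 lower) and 23 under TGFb (11 higher, 12 lower), and with limma 0 were called for the difference of the responses, where 3 had an unadjusted p under 0.05. Over all genes, 10.2% and 9.52% were called with TGFb, 28.1% and 29.3% with the knockdown and 0.0952% for the difference. The counts of each list below are to be read beside these shares. The lists were also written with earlier results of these data known, and the marker calls given above belong to the same comparisons. Adjusted p-values of list genes below are therefore a description and no stronger support than the members' values.

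Of the 4 genes of the cytosolic complex that holds the receptor, chaperones and their cofactors, 0 were called by limma with TGFb in either line, where 0 and 1 had an unadjusted p under 0.05. Ptges3, the p23 cochaperone, fell with the knockdown by 0.24 ± 0.05 under vehicle (limma, adjusted p = 0.0026) and by 0.28 ± 0.05 under TGFb (adjusted p = 0.00097). The first call was lost with array median scaling, quantile normalization (-0.13) and the authors' values, and the second with the authors' values (-0.15). Hsp90aa1 and Hsp90ab1, which encode the chaperone itself, did not pass in any of the 5 comparisons, with changes from -0.16 to 0.14 for Hsp90aa1 and from -0.13 to 0.16 for Hsp90ab1.

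Among the 11 tested bHLH-PAS factors related to the receptor, Npas1, a neuronal repressor that also pairs with ARNT proteins, had the largest response to TGFb. It rose by 2.73 ± 0.15 in control cells (limma, adjusted p = 2.8e-07) and by 3.31 ± 0.15 in knockdown cells (adjusted p = 5.7e-08). Arntl, the clock partner BMAL1, rose with TGFb by 0.51 ± 0.04 and 0.37 ± 0.04 (adjusted p = 8.0e-06 and 0.00013). Its paralog Arntl2 fell by 0.33 ± 0.07 and 0.49 ± 0.07 (adjusted p = 0.0083 and 0.00056), the first of which was lost with array median scaling and with the mean of the probes. Hif1a, the hypoxia-inducible subunit, rose by 0.21 ± 0.05 in each line, and lost that call in 11 and 12 of 26 alternative fits, among them those without vehicle control replicate 1, TGFb control replicate 2 or 3, vehicle knockdown replicate 2 or 3, or any 1 TGFb knockdown replicate.

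With the knockdown 4 factors of the same list rose under both treatments. The share of all genes that rose was 12.2% under vehicle and 11.7% under TGFb. Npas4, a factor induced by neuronal activity, rose by 1.09 ± 0.12 and 0.92 ± 0.12 (limma, adjusted p = 4.8e-05 and 0.00016). Epas1, the HIF2 alpha subunit, rose by 0.80 ± 0.04 and 0.73 ± 0.04 (adjusted p = 2.6e-07 and 5.5e-07), or by 0.36 and 0.37 with the mean of its kept probes, which also passed. Npas3 rose by 0.70 ± 0.08 and 0.69 ± 0.08, and the clock factor Clock by 0.61 ± 0.06 and 0.52 ± 0.06. Arntl fell under TGFb by 0.23 ± 0.04 (adjusted p = 0.0017) and lost the call with normexp correction and with the authors' values.

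Of the 8 coactivators and cofactors of the receptor, 1 was called with TGFb in control cells and 3 in knockdown cells. Ncoa1, the steroid receptor coactivator SRC-1, rose with TGFb by 0.25 ± 0.06 and 0.33 ± 0.06 (limma, adjusted p = 0.012 and 0.0021), the first of which was lost in 6 of 26 fits, those without vehicle control replicate 1 or TGFb control replicate 1 among them, and the second with array median scaling. Ep300, a histone acetyltransferase, fell with the knockdown by 0.34 ± 0.07 and 0.36 ± 0.07 (adjusted p = 0.0032 and 0.0022). Nrip1, a corepressor, fell with the knockdown under vehicle by 0.32 ± 0.07 (adjusted p = 0.0072), a call lost with array median scaling.

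Of the 10 further target genes of the receptor, 6 were tested, and they did not move as 1 group. Cyp2s1, a P450 known to be induced through the receptor, rose with TGFb by 0.64 ± 0.12 in control and 0.63 ± 0.12 in knockdown cells (limma, adjusted p = 0.0043 and 0.0054), against the direction of Cyp1b1. It also rose with the knockdown by 0.57 ± 0.12 and 0.56 ± 0.12 (adjusted p = 0.0041 and 0.0045). The glutathione transferases Gsta1 and Gsta2, near-identical copies whose probes may share signal, rose with the knockdown by 0.97 ± 0.11 and 0.72 ± 0.17 under vehicle and by 0.90 ± 0.11 and 1.11 ± 0.17 under TGFb. With normexp correction these rises passed at smaller sizes, 0.56 and 0.33 under vehicle and 0.49 and 0.57 under TGFb, as did those of Cyp2s1 with the knockdown (0.30 and 0.37). The rise of Cyp2s1 with TGFb in control cells was smallest with the authors' values (0.40). Ugt1a6a, a glucuronosyltransferase, fell with the knockdown by 0.53 ± 0.07 under each treatment (adjusted p = 0.00019 for both). Cyp1a2, the third P450 of the receptor battery, and Serpinb2 were not well above background in any whole group and were not tested.

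Among the 9 NRF2 target genes, which mark the other route to Nqo1, 1 fell with TGFb in control cells and 2 in knockdown cells. Slc7a11, the cystine transporter, fell by 0.35 ± 0.07 and 0.54 ± 0.07 (limma, adjusted p = 0.0073 and 0.00034), the first of which was lost with only the groups compared and was -0.23 with normexp correction. With the knockdown 1 rose and 3 fell under vehicle, and 1 rose and 4 fell under TGFb. Over all genes, 12.2% rose and 15.9% fell under vehicle, and 11.7% rose and 17.6% fell under TGFb. The riser was Hmox1, haem oxygenase, at 0.23 ± 0.05 and 0.26 ± 0.05 (adjusted p = 0.0048 and 0.0022), and G6pdx, the entry enzyme of the pentose phosphate route, fell by 0.28 ± 0.06 and 0.25 ± 0.06 (adjusted p = 0.0070 and 0.012). The Hmox1 calls were lost with array median scaling, that under vehicle also with normexp correction (0.16), and the G6pdx call under vehicle was lost with array median scaling. The G6pdx call under TGFb was lost without TGFb control replicate 2, with array median scaling and with the authors' values.

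Enzymes that turn tryptophan into kynurenines, a source of receptor ligands, were tested for 6 of 11 genes. Ido1, Ido2 and Tdo2, which open the pathway, were not well above background in any whole group, nor were Kynu and Aadat. Ccbl2, a kynurenine aminotransferase, fell with the knockdown by 0.55 ± 0.05 and 0.56 ± 0.05 (limma, adjusted p = 1.8e-05 and 1.7e-05), while its paralog Ccbl1 rose by 0.47 ± 0.07 and 0.29 ± 0.07 (adjusted p = 0.00032 and 0.0061), the latter a call lost with array median scaling. Il4i1, an amino acid oxidase whose products activate the receptor, fell with the knockdown by 0.42 ± 0.09 and 0.67 ± 0.09 (adjusted p = 0.0064 and 0.00029).

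**Figure D4:**
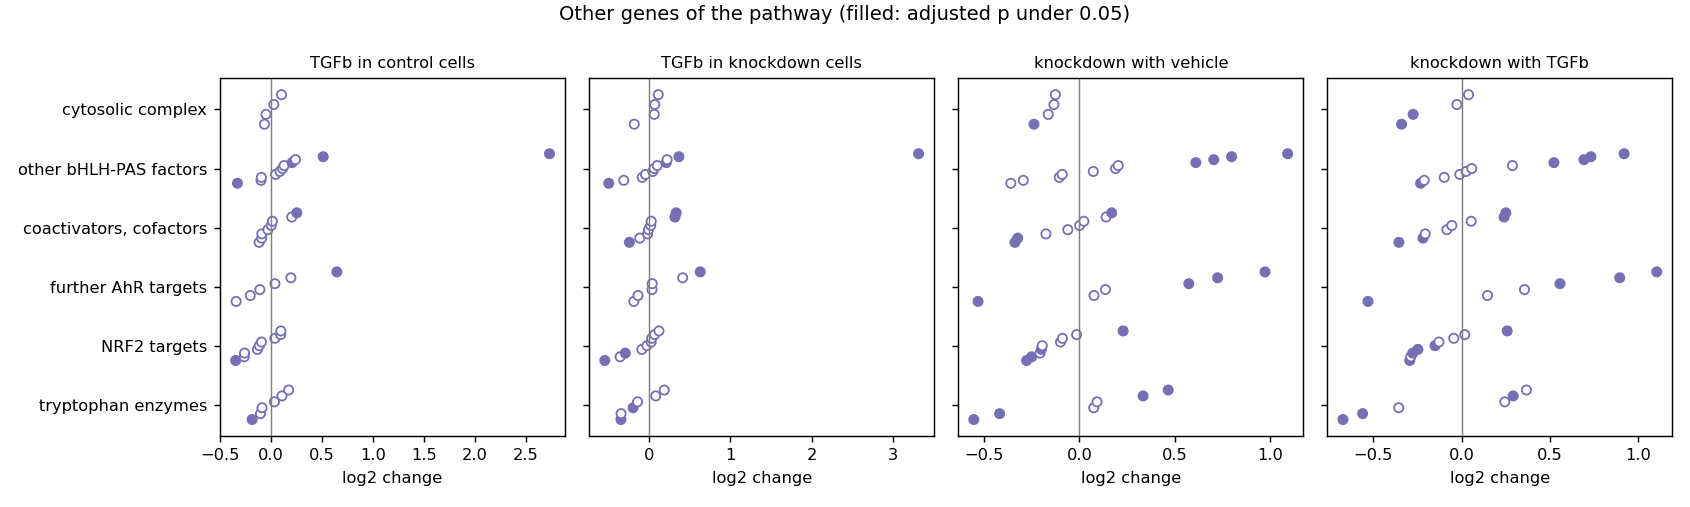
Log2 change (horizontal axis, a scale of its own in each panel) of the 44 tested genes of the 6 pathway lists in 4 comparisons, filled where the adjusted p was under 0.05, with vertical offsets that only separate points. Npas1 stands apart at 2.73 and 3.31 with TGFb, and the bHLH-PAS factors and further targets hold the largest rises with the knockdown.

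The genes whose signal was most like that of Ahr over the 12 arrays were Hs3st1, a heparan sulfate sulfotransferase (Pearson r = 0.990), the transcription factor Klf6 (0.985), Pthlh, a parathyroid hormone-like peptide (0.985), Sertad3 (0.982), the potassium channel Kcnn2 (0.982) and Ddit4l (0.980). The 12 arrays form 4 groups, so these correlations mostly describe the group means. The r of deviations from the group means was -0.15 for Hs3st1, 0.35 for Klf6, 0.46 for Pthlh, 0.10 for Sertad3, -0.06 for Kcnn2 and 0.73 for Ddit4l. With TGFb Hs3st1 changed by -1.12 ± 0.07 in control and -1.53 ± 0.07 in knockdown cells, and Ddit4l by -1.43 ± 0.07 and -1.29 ± 0.07. Of the 6 genes, 4 stayed among the first 6 with normexp correction, 4 with array median scaling and 3 with the authors' values. Within the set, r with Ahr was 0.88 for Ahrr, 0.49 for Cyp1b1, 0.46 for Nqo1, 0.13 for Arnt2, -0.15 for Arnt and -0.63 for Tiparp.

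**Figure D5:**
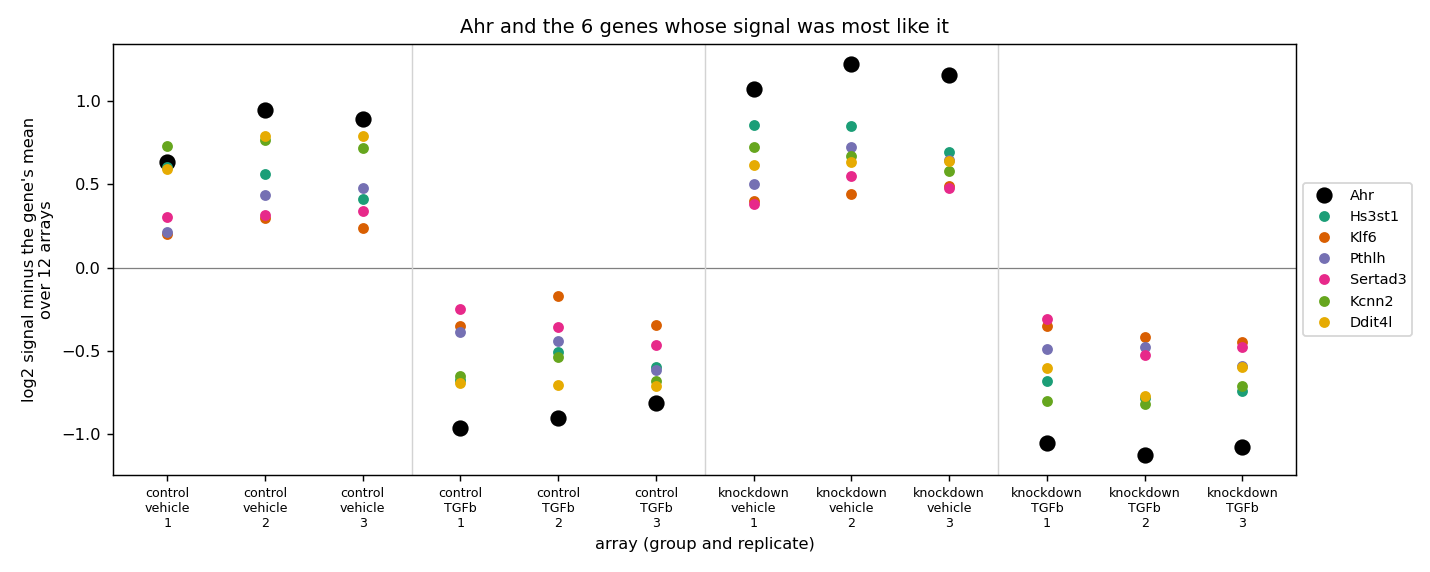
Log2 signal minus the gene's own mean over the 12 arrays (vertical axis) for Ahr and the 6 genes most like it, with 1 column per array ordered by group and replicate. All 7 genes lie above 0 on the 6 vehicle arrays and below 0 on the 6 TGFb arrays, and Ahr has the widest range.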

How the data were processed

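RNA of 12 samples in 4 groups of 3 was hybridised to 1-colour Agilent mouse arrays on 4 slides, after amplification from an oligo-dT primer with Cy3 labelling, per the labels' protocols. Treatment was not balanced over the slides, since slide 1 held only vehicle arrays and slide 4 only TGFb arrays. Vehicle and TGFb arrays shared 2 slides in the control line and 1 slide in the knockdown line. The main fit had no slide term, so the TGFb changes in it are partly confounded with the slide. The scanner files, as deposited, hold spot intensity from Agilent's Feature Extraction software (version 10.7.3.1) with mm9 positions of the probes, per the file headers. The authors' deposited value table holds log2 values, and its 12 columns, each of which matched its own array, share 1 median (7.93) and 1 lowest value (5.66). How its background was corrected is not given in the sources used here, and it served as an alternative.

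Control spots (1377 per array, beside 43020 gene probe spots) and outlier spots were dropped, and repeat spots averaged. From the log2 of the processed signal the 75th percentile of the array was subtracted. A probe was kept if every array of 1 group or more had it well above background (29972 of 39429 probes), and the brightest kept probe stood for its gene (4854 genes had more than 1). RefSeq accessions named 26055 probes, of which 3358 got another symbol than in the file, and 13374 were named as in the file. The fit used limma 3.58.1 in R 4.3.3 with lmFit, contrasts.fit and a trended eBayes over all 12 arrays, with 8 residual and 3.1 prior degrees of freedom and two-sided tests. These steps were tested on simulated data. Comparisons were TGFb against vehicle in control and in knockdown cells, knockdown against control under vehicle and under TGFb, and the difference between both TGFb responses. Precision is limited by the number of arrays.

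The members, the pathway lists and the rules were chosen with earlier results of these data known. Named genes were the members, Kdm6b, Smad7, at most 4 called genes per list and comparison by size of change, and the 6 genes with the highest Pearson correlation to Ahr (passing over genes with only a clone or accession name). Some genes that this rule names are not reported here. Alternatives covered background correction, normalization, filter, probe rule, prior, array weights, slide and replicate blocks, and leaving out each array. Same-numbered vehicle arrays of the 2 lines lay on the same slide, and their deviations from the group means correlated at 0.47, 0.58 and 0.25, so the numbers pair them through the slide. In the other comparisons the correlations lay between -0.53 and 0.18. The highest, 0.18, was that of replicate 3 of the TGFb control and TGFb knockdown groups, which shared a slide. The other same-numbered arrays of these comparisons lay on different slides, and their numbers did not pair them.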

Additional observations from a re-analysis of the deposited data

Results flagged for a closer look

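The change of Ahr with the knockdown differed in sign between treatments. With vehicle all 3 knockdown arrays lay above all 3 control arrays (0.32), and with TGFb all 3 lay below (-0.19). The first change passed the threshold and lost its call in 4 of 26 alternative fits. The second did not pass, except in 3 of 26, among them the slide as a fixed and as a random block. The difference of -0.52 did not pass the threshold over all genes in limma. In 1 of 25 alternative fits, that with the slide as a random block, it passed.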

How the results depend on the processing

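Of the 28 changes of members with TGFb or the knockdown, those of Ahr, Ahrr and Cyp1b1 with TGFb and of Cyp1b1 with the knockdown passed in all 26 alternative fits, as did the fall of Tiparp in vehicle knockdown cells. With the mean of the kept probes the knockdown changes reversed to -0.0645 for Arnt and -0.0886 for Ahrr under vehicle and to -0.11 for Arnt under TGFb, since the probes disagree. Members called with the knockdown under vehicle numbered 3 with normexp correction, 3 with array median scaling, 3 with the authors' values and 3 to 6 without 1 array, lowest without vehicle knockdown replicate 2. Under TGFb they numbered 2 with median scaling and 2 with the mean of the probes, and for the difference of the responses 1 (Ahr) with the slide as a random block.

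Median scaling called 1516 and 1386 genes with TGFb, 3951 and 4644 with the knockdown and 5 for the difference, and 4, 5, 13 and 15 genes of the pathway lists. Array weights called 4275 genes with TGFb in knockdown cells and 66 for the difference. The difference was called for 15 genes with the authors' values, 44 and 97 with the slide as a fixed and a random block, and 3 to 28 without 1 array, moved by over 1.5 times without any 1 array other than vehicle control replicate 2, vehicle knockdown replicate 1 and TGFb knockdown replicate 1. The replicate block, which could matter through the shared slide, called 11 for the difference and ended the vehicle call of Arnt, and it changed no other call of a member. The pathway count with TGFb in control cells was 13 with the random slide block, 4 with only the groups compared and 5 to 9 without 1 array (lowest without vehicle control replicate 1). In knockdown cells it was 7 with only the groups compared and 6 to 13 without 1 array (6 or 7 without vehicle knockdown replicate 2 or 3 or TGFb knockdown replicate 2 or 3). The cause of these differences was not tested. Sign changes of values that passed in neither fit have no direction. Depth, here signal over background, leaves Cyp1a1 and the second Ahr probe without a level.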
